A study of Mus musculus with 6 samples.

Results

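The genes described here carry out mitosis and the segregation of chromosomes. They were a fixed list of 48 symbols, from the proliferation marker Mki67 to the phosphatase Cdc25c. The list was chosen by function, but with earlier results of these data known. Of these, 47 had an array row annotated with that symbol alone, 1 row each, among 22180 genes measured in this way. Ncapg, a condensin subunit, had no such row, since its row also carries the symbol Lcorl. Whole-transcript microarrays gave their levels in mouse iNKT cells (invariant natural killer T cells), which carry a nearly fixed receptor and recognise lipids presented by CD1d. There were 3 arrays of PLZF_ON mice, which express a constitutively acetylated PLZF, the transcription factor encoded by Zbtb16 on which iNKT cells depend, and 3 arrays of wild type (WT) control mice. Replicates 1 and 2 of each genotype are the 4 arrays that the study names as analysed, and replicate 3 of each was deposited beside them. How the allele was built, how old the mice were, which organ was taken and how cells were isolated is not stated in the labels, whose RNA protocol mentions frozen tissue. The labels do not name separate animals for the replicates, so the spread behind each p-value may be technical only.

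A dividing cell makes most of these transcripts late in its cycle. Cyclin-dependent kinase 1 with cyclins A and B starts mitosis, condensins and topoisomerase shape the chromosomes, kinetochores attach them to a spindle built by kinesins, the spindle checkpoint delays anaphase until all are attached, and the anaphase-promoting complex (APC/C) then releases separase and ends the phase. iNKT cells proliferate strongly as immature thymic precursors and divide little once mature. In resting cells the DREAM complex holds these genes silent, and in dividing cells MYB-MuvB and FOXM1 activate them, through a promoter element called the cell cycle homology region (letters TTTGAA) and nearby CCAAT boxes.

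Promoter sequences are shown for the motifs named above. The members were chosen as mitosis genes, so the shares of these motifs describe the list and not the arrays. RefSeq windows on GRCm38.p6, of 250 bases before to 50 after a start, were found for 38 of the 47 members (40 windows, since Ect2 and Prc1 each have a pair that overlaps). TTTGAA, searched on both strands, stood in 31 of the 40 windows (77.5%), against 17.9% of all 32851 windows of that length. CCAAT, also on both strands, stood in 30 (75%), against 37.4%, and both motifs in 27 (67.5%), against 6.95%. A match of TTTGAA and one of CCAAT overlapped at 1 place in the members' windows. Of 38 distinct matches of TTTGAA, 28 began within 50 bases of a start. Members with TTTGAA had a median difference between PLZF_ON and WT over 4 arrays of 0.7 (29 genes), and those without it of 0.69 (9 genes). The medians were 0.63 with CCAAT (28 genes) and 0.81 without it (10 genes), and 0.59 with both motifs (25 genes) and 0.92 for the other 13. Such matches describe letters and not binding. The 120 bases before the start are given for a kinesin, topoisomerase, the mitotic kinase and 3 genes of the anaphase machinery, each with both motifs in this stretch. Capitals mark TTTGAA or its reverse complement TTCAAA, and CCAAT or its reverse complement ATTGG.
Kif11, chr19:37376262-37376381, plus strand: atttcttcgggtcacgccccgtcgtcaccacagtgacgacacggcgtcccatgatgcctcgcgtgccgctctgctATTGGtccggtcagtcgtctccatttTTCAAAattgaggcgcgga
Top2a, chr11:99024190-99024309, minus strand: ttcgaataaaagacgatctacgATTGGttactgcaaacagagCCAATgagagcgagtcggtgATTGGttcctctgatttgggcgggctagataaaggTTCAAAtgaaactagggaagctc
Cdk1, chr10:69352913-69353032, minus strand: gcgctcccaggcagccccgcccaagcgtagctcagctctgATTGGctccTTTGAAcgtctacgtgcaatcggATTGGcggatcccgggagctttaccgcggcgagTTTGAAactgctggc
Espl1, chr15:102296173-102296292, plus strand: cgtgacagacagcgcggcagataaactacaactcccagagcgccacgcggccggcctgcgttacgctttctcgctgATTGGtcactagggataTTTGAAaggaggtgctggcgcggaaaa
Cdc20, chr4:118437344-118437463, minus strand: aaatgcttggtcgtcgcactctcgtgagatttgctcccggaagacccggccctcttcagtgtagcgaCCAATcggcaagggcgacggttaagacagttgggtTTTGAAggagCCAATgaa
Ube2c, chr2:164769809-164769928, plus strand: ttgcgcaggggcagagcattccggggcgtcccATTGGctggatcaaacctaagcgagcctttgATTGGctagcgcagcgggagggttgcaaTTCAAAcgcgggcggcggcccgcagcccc

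Values are log2 expression levels, so that 1 unit is a 2-fold change. On every array the 47 members formed a broad range, and their median was 6.19, 7.13 and 5.76 in PLZF_ON replicates 1 to 3, against 5.47, 6.51 and 5.56 in WT replicates 1 to 3. PLZF_ON replicate 2 was thus the highest array and WT replicate 1 the lowest, and WT replicate 2 lay above PLZF_ON replicates 1 and 3. PLZF_ON replicate 2 was the highest of the 6 arrays for 43 of 47 members, against 13.2% of all rows. The others were Plk1, highest in WT replicate 2, Nek2 and Mad2l1, highest in PLZF_ON replicate 3, and Cenpa, highest in PLZF_ON replicate 1. A different number of dividing cells and a different amount of mRNA per dividing cell cannot be told apart in bulk RNA.

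**Figure D1:**
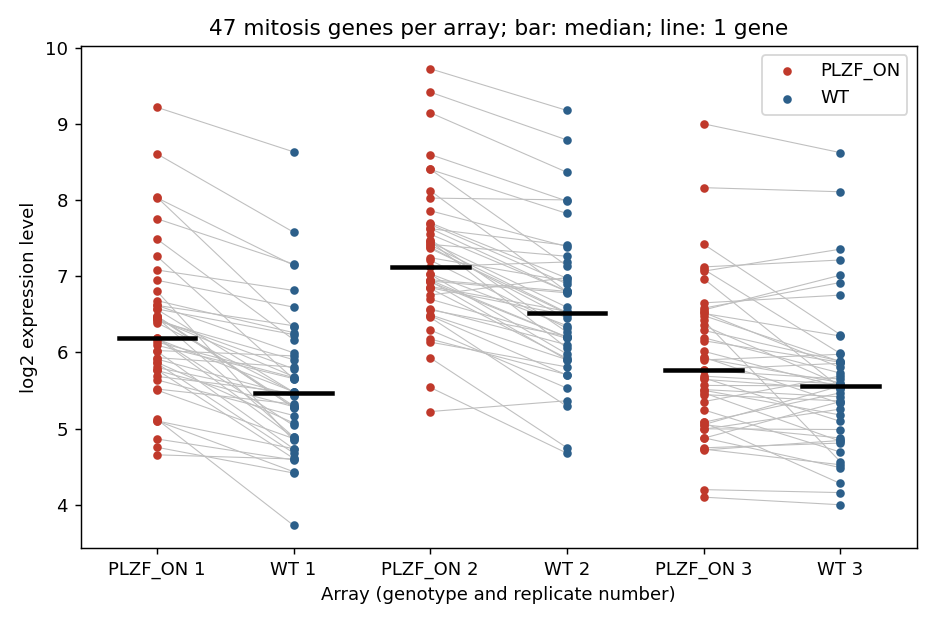
Log2 expression level (vertical axis) of 47 mitosis genes on each of the 6 arrays (horizontal axis), PLZF_ON in red and WT in blue, with a grey line joining the values of a gene on the arrays of the same replicate number and a black bar at the median. The medians are 6.19, 7.13 and 5.76 in PLZF_ON replicates 1 to 3, against 5.47, 6.51 and 5.56 in WT replicates 1 to 3, so that both genotypes are higher in replicate 2.

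Over the 4 arrays named by the study, all 47 members had a difference above 0 between PLZF_ON and WT, against 49.3% of all 23521 rows tested, with a median of 0.67 on the log2 scale and a range of 0.02 (Cenpa) to 1.44 (Kif11). The median over all rows was -0.0035. By limma with genotype as the one term, 0 of 47 members passed an adjusted p of 0.05 as higher, against 0.102% of all rows, and 0 as lower, against 0.068%. The smallest limma adjusted p was 0.245, of Smc4. An unadjusted p under 0.05 was reached by 8 members, all higher (17.0%, against 4.88% of all rows), and 0 were lower, against 4.53%. The 8 were Aurka, Ttk, Cdc20, Kif11, Kif15, Kif2c, Ncaph and Smc4. PLZF_ON and WT did not overlap for 10 of 47 members (21.3%), the same 8 with Mad2l1 and Smc2, all higher in PLZF_ON. That share is close to the 18.9% of all rows that were higher without overlap. No member was lower without overlap, against 19.3% of all rows. The size of the difference moved with the array left out, and leaving out 1 array also leaves the replicate numbers uneven between the genotypes. Without PLZF_ON replicate 2 the median was 0.23 and 2 members had an unadjusted p under 0.05 as higher, against 4.17% of all rows in that fit. Without WT replicate 1 it was 0.21, again with 2 members (3.55% of all rows). Without PLZF_ON replicate 1 the median was 1.09 with 26 such members (4.8% of all rows), and without WT replicate 2 it was 1.14 with 32 (5.06% of all rows). The number passing an adjusted p of 0.05 was 0 in each case. These fits have 1 array in one genotype, which is assumed to vary like the other genotype.

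Set side by side by replicate number, PLZF_ON was higher than WT for 47 of 47 members in number 1 and for 44 of 47 in number 2, against 48.8% and 50.9% of all rows. Higher within both numbers were 44 members (93.6%), against 27.2% of all rows. The median difference was 0.64 in number 1 and 0.73 in number 2. The 3 exceptions in number 2 were Plk1 (-0.06), Nek2 (-0.14) and Cenpa (-0.23). Differences of at least 1 log2 unit were seen for 16 members in number 1 and 8 in number 2, against 1.39% and 1.07% of all rows. Each number holds 1 array per genotype, so these differences have no test, and the labels do not say what a number stands for.

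In the medians, the gap between replicates 1 and 2 of a genotype was larger than the gap between genotypes. Replicate 2 exceeded replicate 1 by a median of 0.98 in PLZF_ON (46 of 47 members higher, all but Cenpa) and 1.11 in WT (47 of 47). Replicate 2 was the higher in both genotypes for 46 members, against 25% of all rows. WT replicate 2 lay above PLZF_ON replicate 1 for 36 (76.6%), against 49.4%. In WT this gap was larger than the member's 4-array genotype difference for 36 of 47. The share of all rows for this count was not taken, so it is no trait of the members. The order WT replicate 1, PLZF_ON replicate 1, WT replicate 2, PLZF_ON replicate 2, from low to high, was found for 34 of 47 members (72.3%), against 4.55% of all rows. The heat map of the members shows this order as a band of high values in PLZF_ON replicate 2 and WT replicate 2.

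**Figure D2:**
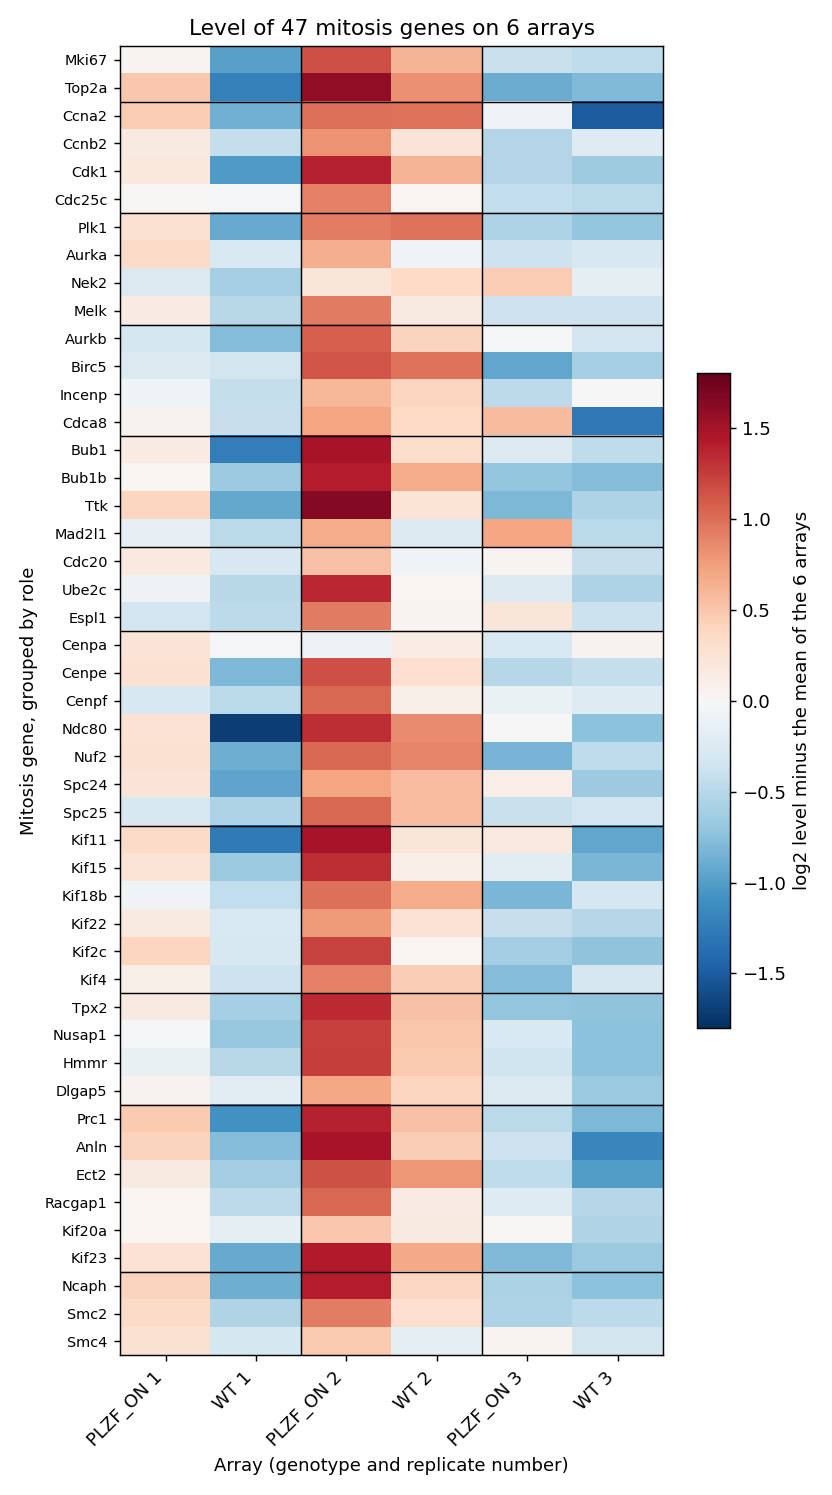
Log2 level of each of 47 mitosis genes (rows, grouped by role between black lines) on the 6 arrays (columns, in pairs of the same replicate number), shown as the difference from the gene's mean over the 6 arrays, red for above and blue for below. PLZF_ON replicate 2 is the highest array for 43 of the 47 genes, and Cenpa is nearly level across all arrays.

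In replicate 3 the median difference was nearer to 0. There PLZF_ON was higher for 33 of 47 members, against 55.9% of all rows, with a median of 0.13 and a range of -0.51 (Kif18b) to 1.85 (Cdca8). The 4 members higher by at least 1 log2 unit, against 2.88% of all rows, were Cdca8, Ccna2, Mad2l1 and Kif11. Higher in all 3 numbers were 31 members (66.0%), against 15.3% of all rows. Over all 6 arrays the median difference was 0.53, 45 of 47 members were above 0, against 54.9% of all rows, and by limma 0 passed an adjusted p of 0.05 as higher, against 0.0255% of all rows, and 0 as lower, against 0.068% (smallest adjusted p = 0.545, of Mad2l1). An unadjusted p under 0.05 was reached by 4 members (8.51%, against 2.45% of all rows), which were Mad2l1, Smc4, Kif11 and Cdc20, and 0 were lower, against 3.32%. The genotypes did not overlap over 6 arrays for 3 members (6.38%, against 5.55% of all rows), Mad2l1, Smc4 and Cdc20, all higher in PLZF_ON, with 0 lower against 6.22%. Without PLZF_ON replicate 3 the 6-array median was 0.82 with 20 members under an unadjusted p of 0.05 as higher (5.04% of all rows), and without PLZF_ON replicate 2 it was 0.17 with 1 (2.61% of all rows). Without WT replicate 2 it was 0.87 with 14 (1.79% of all rows). Without WT replicate 1 or WT replicate 3 it was 0.38 or 0.41, with 2 each (1.43% and 1.6% of all rows).

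PLZF_ON replicate 3 stood apart from the other arrays. Its correlations with them over all rows were 0.895 to 0.898, against 0.957 to 0.973 among the other 5. Its values over the tested rows were also spread less, with a standard deviation of 1.61, against 1.85 to 1.91 on the other 5 arrays. The upper quartile was 6.31, against 6.58 to 6.66. The part of this narrower spread in the replicate 3 differences was not tested. All 7 measured markers of immature thymocytes (8 listed) were highest in PLZF_ON replicate 3, with Cd24a at 9.58, against 4.41 to 5.27 on the other 5 arrays, and Dntt, the terminal transferase of cells rearranging their receptors, at 7.19, against 3.46 to 4.10. On the log2 scale the summed level of this list was 7.46, 7.56 and 10.41 in PLZF_ON replicates 1 to 3, against 7.57, 7.53 and 7.42 in WT. Of 9 myeloid markers 7 were highest in it, with a summed level of 9.18, against 7.97 to 8.14 elsewhere. S100a8 and S100a9 were at 7.29 and 7.2 in PLZF_ON replicate 3, against at most 3.09 and 4.29 elsewhere. Immature thymocytes include many dividing cells, and the part of these levels in the replicate 3 values was not tested. In replicates 1 and 2 the summed immature thymocyte, B cell and myeloid markers of PLZF_ON differed from those of WT by less than 0.2. The B cell sum was 6.87 to 7.04 on all 6 arrays. Erythroid markers were at 8.06 and 8.13 in PLZF_ON, against 7.55 and 7.84 in WT, with Tfrc, the transferrin receptor that dividing cells also use, as the brightest row. Epithelial and stromal markers were at 9.64 and 9.90, against 8.87 and 9.18, carried by Pecam1, which leukocytes also express. Their part in the difference was not tested. The 7 measured T cell and iNKT markers (8 listed) had a summed level of 12.79 in PLZF_ON replicate 3, against 13.36 to 13.59 on the other 5 arrays. Single markers of this list differed between the genotypes in either direction in replicates 1 and 2. Il2rb was at 10.009 and 9.755 in PLZF_ON, against 10.998 and 10.734 in WT. Slamf6 was at 9.612 and 9.716 in PLZF_ON, against 7.846 and 8.793 in WT. What these levels contribute to the mitosis gene differences was not tested. No marker of this list was under the background limit given next on any array.

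Detection calls were not used here, so a rough background limit of 5.2 was taken from the 95th percentile over 1405 rows of olfactory or vomeronasal receptors, genes of sensory neurons. No member lay under it on all 6 arrays. The number of members under it was 6, 0 and 13 in PLZF_ON replicates 1 to 3, against 16, 2 and 14 in WT. Differences of members with values under that limit, among them Bub1, Kif2c, Nek2, Cdc25c and Anln, are uncertain. They may understate a change, as RMA compresses dim rows, and a difference between values that are both under the limit may be background. In number 1 this held for both values of Bub1 (5.12 in PLZF_ON and 3.73 in WT) and of Kif2c (5.1 and 4.43).

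Mki67 and Top2a are the usual markers of dividing cells, a chromosome coat protein and the topoisomerase that untangles sister chromatids. Mki67 had levels of 8.61, 9.72 and 8.16 in PLZF_ON replicates 1 to 3, against 7.58, 9.18 and 8.11 in WT replicates 1 to 3. The replicates of WT alone spanned more than the gap between genotypes. Top2a was at 8.04, 9.15 and 6.65 in PLZF_ON, against 6.33, 8.37 and 6.75 in WT. Their 4-array differences were 0.79 (SE 0.57, limma adjusted p = 0.783) and 1.24 (SE 0.68, limma adjusted p = 0.679). Without WT replicate 1 the difference of Mki67 was -0.01, while within numbers 1 and 2 it was 1.03 and 0.55. Both genes were lowest in WT replicate 1, and in replicate 3 the difference was 0.054 for Mki67 and -0.1 for Top2a.

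Cyclin-dependent kinase 1 (Cdk1) drives entry into mitosis with its cyclins Ccna2 and Ccnb2, and Cdc25c removes its inhibitory phosphates. Ccnb2 was at 7.75, 8.4 and 7.07 in PLZF_ON replicates 1 to 3, against 7.16, 7.82 and 7.36 in WT replicates 1 to 3. Within numbers 1 and 2 PLZF_ON was higher by 0.59 and 0.58, and the 4-array difference was 0.59 (SE 0.29, limma adjusted p = 0.646). In number 3 the difference of Ccnb2 was -0.29. Cdk1 itself had a difference of 0.99, Ccna2 of 0.67 and Cdc25c of 0.46, and no member of the group had an unadjusted p under 0.05. Ccna2 differed by 1.32 in number 1, by 0.02 in number 2 and by 1.43 in number 3.

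Among the other mitotic kinases, Aurka, which matures centrosomes and the spindle poles, was at 6.62, 6.92 and 5.9 in PLZF_ON replicates 1 to 3, against 5.99, 6.2 and 5.97 in WT replicates 1 to 3. In replicates 1 and 2 both PLZF_ON arrays lay above both WT arrays, with a difference of 0.68 (SE 0.17, limma adjusted p = 0.251), while in replicate 3 the genotypes differed by -0.07. Nek2, a kinase that splits centrosomes, did not follow the others and was at 4.75, 5.22 and 5.47 in PLZF_ON, against 4.42, 5.37 and 4.83 in WT. Its difference was 0.1 (SE 0.33, limma adjusted p = 0.971), and it was negative without WT replicate 1 (-0.38) or without PLZF_ON replicate 2 (-0.14). Plk1, the polo-like kinase of many mitotic steps, had a difference of 0.56, with 1.18 in number 1 and -0.06 in number 2. Melk, a kinase abundant in dividing cells, had a difference of 0.7.

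The chromosomal passenger complex corrects faulty attachments at centromeres and consists of the kinase Aurkb, the scaffold Incenp, survivin (Birc5) and borealin (Cdca8). Its 4 members had the smallest median 4-array difference of the role groups, 0.35. Incenp was at 6.95, 7.62 and 6.56 in PLZF_ON replicates 1 to 3, against 6.59, 7.41 and 7.01 in WT replicates 1 to 3. Birc5 was at 6.02, 7.42 and 5.35 in PLZF_ON, against 5.95, 7.26 and 5.69 in WT. For both, replicate 2 was the highest in either genotype. Within numbers 1 to 3 the differences were 0.35, 0.22 and -0.46 for Incenp and 0.07, 0.16 and -0.34 for Birc5. The differences were 0.29 (SE 0.33, limma adjusted p = 0.886) for Incenp and 0.11 (SE 0.56, limma adjusted p = 0.98) for Birc5, and without PLZF_ON replicate 2 they were -0.05 and -0.58, or without WT replicate 1 -0.12 and -0.54. Cdca8 was at 5.91, 6.56 and 6.42 in PLZF_ON, against 5.43, 6.21 and 4.57 in WT, with a 4-array difference of 0.41 (SE 0.32, limma adjusted p = 0.802). Its difference of 1.85 in number 3 came with the lowest level of all 6 arrays in WT replicate 3.

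Spindle checkpoint genes had the largest median difference among role groups of more than 2 genes, 1.0, with all 4 higher in PLZF_ON in numbers 1 and 2. Ttk, the MPS1 kinase that starts the checkpoint signal, was at 6.19, 7.46 and 4.99 in PLZF_ON replicates 1 to 3, against 4.88, 6.06 and 5.25 in WT replicates 1 to 3. Bub1, a kinase recruited to unattached kinetochores, was at 5.12, 6.46 and 4.73 in PLZF_ON, against 3.73, 5.29 and 4.53 in WT. Their differences were 1.35 (SE 0.51, limma adjusted p = 0.481) and 1.28 (SE 0.6, limma adjusted p = 0.611), or 2.56-fold and 2.43-fold. In number 3 neither showed this size, with -0.26 for Ttk and 0.2 for Bub1. Bub1 was under the background limit on 4 of the 6 arrays and Ttk on 2. Mad2l1, the MAD2 protein that binds and holds Cdc20, was at 6.57, 7.38 and 7.42 in PLZF_ON, against 6.23, 6.45 and 6.23 in WT. It was higher in all PLZF_ON arrays than in all WT arrays, with 0.64 (SE 0.27, limma adjusted p = 0.558) over 4 arrays and 0.82 (SE 0.25, limma adjusted p = 0.545) over 6. Bub1b, the BUBR1 protein of the same inhibitory complex, had a 4-array difference of 0.72.

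Cdc20 activates the APC/C, Ube2c charges it with ubiquitin, and Espl1 is separase, which cuts cohesin. Cdc20 was at 6.14, 6.49 and 6.01 in PLZF_ON replicates 1 to 3, against 5.67, 5.9 and 5.55 in WT replicates 1 to 3. All 3 PLZF_ON arrays lay above all 3 WT arrays, and the within-number differences of 0.47, 0.59 and 0.47 were of similar size. Over the 4 arrays its difference was 0.53 (SE 0.18, limma adjusted p = 0.42). Ube2c was at 6.68, 8.12 and 6.51 in PLZF_ON, against 6.26, 6.8 and 6.21 in WT, with a difference of 0.87 (SE 0.46, limma adjusted p = 0.664). Within numbers 1 and 2 its difference was 0.42 and 1.32, and without PLZF_ON replicate 2 it was 0.15. Espl1 had a difference of 0.51 and was higher in all 3 numbers, as were Cdc20 and Ube2c.

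The centromere and kinetochore group held the least and some of the most different members. Cenpa, the histone H3 variant that marks centromeres, was at 7.08, 6.75 and 6.58 in PLZF_ON replicates 1 to 3, against 6.81, 6.98 and 6.92 in WT replicates 1 to 3. Its levels were almost flat, with a difference of 0.02 (SE 0.17, limma adjusted p = 0.987), and PLZF_ON replicate 2, the highest array for most members, was below all 3 WT arrays for Cenpa. The sign of this difference turned without WT replicate 1 (-0.06) or without PLZF_ON replicate 1 (-0.14). Cenpe, a kinesin motor of the outer kinetochore, was at 6.56, 7.45 and 5.77 in PLZF_ON, against 5.48, 6.59 and 5.86 in WT, with 0.97 (SE 0.43, limma adjusted p = 0.572). Ndc80 and Nuf2, which bind microtubules, had differences of 1.22 and 0.65, and their partners Spc24 and Spc25 of 0.67 and 0.37. Ndc80 had the largest difference of any member in number 1, 1.96, and 0.47 in number 2. Cenpf, a large protein of the outer kinetochore, had a difference of 0.56.

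Of the spindle and chromosome kinesins, Kif11, the EG5 motor that pushes spindle poles apart, had the largest 4-array difference of all members, 1.44 (SE 0.55, limma adjusted p = 0.491), or 2.71-fold. It was at 7.26, 8.4 and 7.09 in PLZF_ON replicates 1 to 3, against 5.65, 7.14 and 5.99 in WT replicates 1 to 3. Within each number PLZF_ON was higher by more than 1 log2 unit, by 1.61, 1.27 and 1.11, while PLZF_ON replicate 3 still lay just below WT replicate 2. Over 6 arrays the difference of Kif11 was 1.33 (SE 0.46, limma adjusted p = 0.691). Kif2c, which depolymerises microtubules at centromeres, was at 5.1, 5.93 and 4.1 in PLZF_ON, against 4.43, 4.75 and 4.0 in WT, with 0.92 (SE 0.28, limma adjusted p = 0.371), and its genotypes overlapped when replicate 3 was included. Kif15, which can share the task of Kif11, had a difference of 1.06, the chromokinesins Kif4 and Kif22 of 0.47 and 0.48, and Kif18b, which shortens astral microtubules, of 0.35.

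Spindle assembly factors had differences between 0.29 and 0.79. Tpx2, which activates Aurka on the spindle, was at 6.43, 7.63 and 5.57 in PLZF_ON replicates 1 to 3, against 5.68, 6.8 and 5.56 in WT replicates 1 to 3. Dlgap5 (HURP), which stabilises kinetochore fibres, was at 6.62, 7.24 and 6.29 in PLZF_ON, against 6.35, 6.94 and 5.88 in WT. The differences were 0.79 (SE 0.48, limma adjusted p = 0.727) for Tpx2 and 0.29 (SE 0.28, limma adjusted p = 0.855) for Dlgap5, and that of Dlgap5 was -0.01 without WT replicate 1 and -0.03 without PLZF_ON replicate 2. All 4 genes of the group were higher in PLZF_ON within each of the 3 numbers, with the smallest gap in number 3 for Tpx2 (0.01). Nusap1 and Hmmr, both microtubule-binding spindle proteins, had differences of 0.69 and 0.57.

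Cytokinesis genes divide the cell after anaphase, with Prc1 and the kinesins Kif20a and Kif23 at the central spindle, Racgap1 and Ect2 turning on RhoA, and anillin (Anln) in the contractile ring. Racgap1 was at 6.41, 7.41 and 6.15 in PLZF_ON replicates 1 to 3, against 5.9, 6.52 and 5.87 in WT replicates 1 to 3. Anln was at 5.86, 6.94 and 5.08 in PLZF_ON, against 4.68, 5.9 and 4.28 in WT. All 6 genes of the group were higher in PLZF_ON in numbers 1 and 2, and 5 of 6 in number 3, the exception being Kif23 (-0.12). The differences were 1.11 (SE 0.48, limma adjusted p = 0.57) for Anln and 0.7 (SE 0.36, limma adjusted p = 0.656) for Racgap1. Prc1 had a difference of 1.21, Kif23 of 0.95, Ect2 of 0.58 and Kif20a of 0.27, and none of the 6 had an unadjusted p under 0.05. In all 6 WT replicate 2 lay above PLZF_ON replicate 1.

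Condensins compact chromosomes, with Smc2 and Smc4 as the ATPase arms of both complexes and Ncaph as the kleisin of condensin I. The 3 measured genes were the one role group in which, in replicates 1 and 2, both PLZF_ON arrays lay above both WT arrays for every measured gene. Of all rows 18.9% were higher without overlap over these 4 arrays, and the group was singled out after the values were seen. Over 6 arrays 1 of the 3 genes was without overlap, against 5.55% of all rows. Smc4 was at 9.22, 9.42 and 9.0 in PLZF_ON replicates 1 to 3, against 8.63, 8.79 and 8.62 in WT replicates 1 to 3. Its replicates differed little within a genotype, and the difference of 0.61 (SE 0.15, limma adjusted p = 0.245) had the smallest standard error of the members. Over 6 arrays it was 0.53 (SE 0.17, limma adjusted p = 0.593), again with no overlap. Ncaph had a difference of 1.16 and Smc2 of 0.75, and in number 3 they differed by 0.17 and -0.09. The row that Ncapg shares with Lcorl is not counted here.

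**Figure D3:**
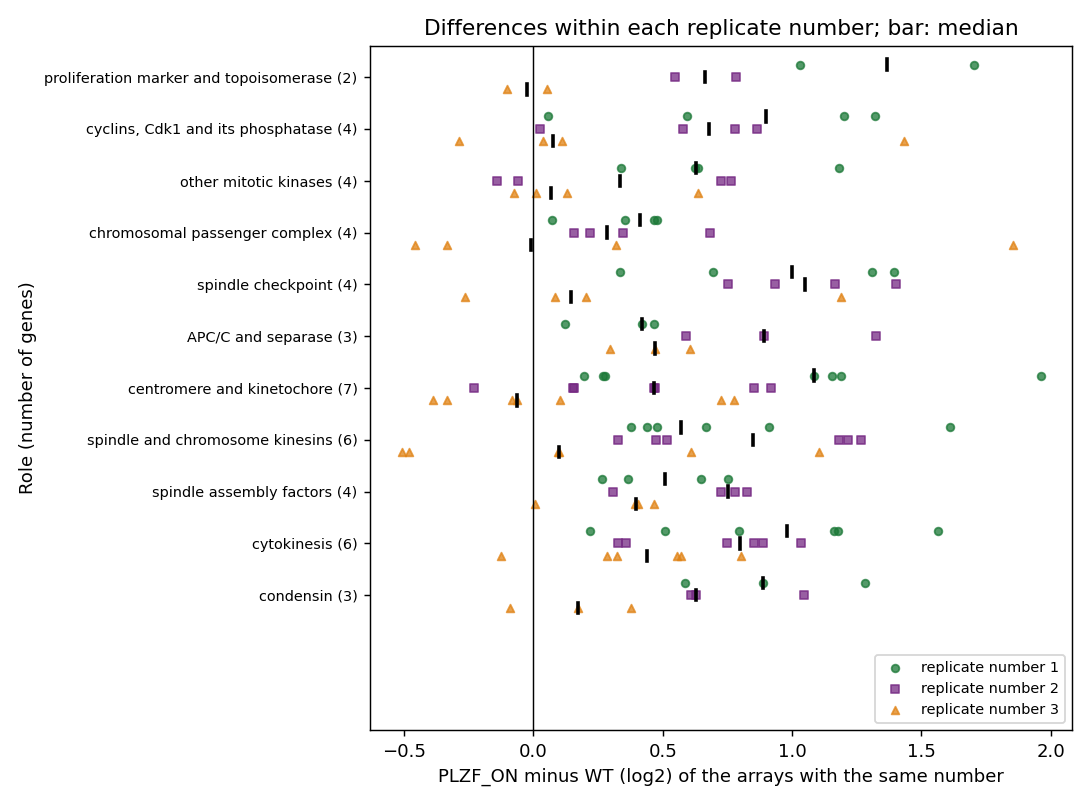
PLZF_ON minus WT difference on the log2 scale (horizontal axis) of each mitosis gene within replicate number 1 (green circles), 2 (purple squares) and 3 (orange triangles), by role (vertical axis, with the number of genes), and a black bar at the median of each. All differences are above 0 in number 1 and 44 of 47 in number 2, while those of number 3 scatter around 0 with a median of 0.13.

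Other genes of the cycle were read from further lists. Of 69 measured genes with other roles in mitosis, 60 had a 4-array difference above 0, with a median of 0.34. By limma 0 passed an adjusted p of 0.05 in either direction, and 5 had an unadjusted p under 0.05, all higher (Ska3, Stmn1, Cdc25b, Cenpn and Zw10; 7.25%, against 4.88% of all rows). Ska3, a kinetochore protein, had the smallest p of them and a difference of 1.47 (SE 0.45, limma adjusted p = 0.372), at 5.64, 6.76 and 5.06 in PLZF_ON, against 4.22, 5.24 and 4.68 in WT. The next were Stmn1, a microtubule destabiliser (0.49), Cdc25b, a phosphatase that activates Cdk1 (0.7), and Cenpn, a centromere protein (0.52). Within numbers 1 to 3 the medians of this list were 0.29, 0.36 and 0.06. The levels in PLZF_ON replicate 3 were the lowest of the 6 arrays for 27 of these 69 genes. The share of all rows lowest on that array was not taken, so this count is no trait of the list.

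DNA replication genes, which act in the preceding S phase, had a smaller median difference. Above 0 were 33 of 37, with a median of 0.26, beside 0.67 for the mitosis genes, and 0 passed by limma, with 4 under an unadjusted p of 0.05, all higher (10.8%, against 4.88% of all rows). These were Orc6, of the origin recognition complex, with 0.68 (SE 0.14, limma adjusted p = 0.186), Gins2, of the replicative helicase (0.69), the primase subunit Prim1 (0.94) and Tyms, which makes thymidylate (1.06). The medians within numbers 1 to 3 were 0.38, 0.26 and -0.2. In number 3, 16 of 37 were higher in PLZF_ON, against 55.9% of all rows, with a range of -1.29 to 0.85. Prim1 stood at 7.61, 8.08 and 5.46 in PLZF_ON, against 6.48, 7.34 and 6.72 in WT, with PLZF_ON replicate 3 the lowest array. The difference between the lists was not tested.

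Regulators of the cycle were mixed. Of 20 transcription factors and partners, 14 had a 4-array difference above 0 (median 0.18), 0 passed by limma, and 4 higher (Tfdp2, E2f1, E2f3 and Rbl1) and 1 lower (Rbl2) had an unadjusted p under 0.05, or 20% and 5% of the list, against 4.88% and 4.53% of all rows. Tfdp2, a partner of E2F factors (0.55), E2f1 (0.47) and E2f3 (0.72), which turn on S phase genes, were among the higher ones over 4 arrays. In replicate 3 Tfdp2 was at 5.47 in PLZF_ON, against 6.49 in WT, and E2f3 at 5.815, against 6.8. E2f1 was at 5.5 there, against 5.09. Within numbers 1 to 3 the medians of this list were 0.22, 0.19 and -0.55, with 4 of 20 higher in number 3, against 55.9% of all rows. Over 6 arrays the median was -0.04, with 9 of 20 above 0, against 54.9%. Rbl2, the p130 pocket protein of the DREAM complex in resting cells, was at 8.48, 8.37 and 7.68 in PLZF_ON, against 8.88, 8.79 and 8.72 in WT, lower in every PLZF_ON array than in every WT array, with a difference of -0.41 (SE 0.13, limma adjusted p = 0.407). Foxm1 and Mybl2, which activate genes of the late cycle, had differences of 0.3 and 0.36.

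Of the 8 measured cyclins and kinases of G1, 6 had a 4-array difference above 0, with a median of 0.16, 0 passed by limma, and 2, both higher, had an unadjusted p under 0.05 (25% of the list, against 4.88% of all rows). These were Cdk2 (0.62) and Cdk6 (0.65), kinases that phosphorylate the retinoblastoma protein, while Ccnd3, cyclin D3, had a difference of -0.26 and the phosphatase Cdc25a of 0.53. In replicate 3 Cdk2 was at 6.075 in PLZF_ON, against 6.82 in WT, and Cdk6 at 6.87, against 7.24. Medians of this list within numbers 1 to 3 were 0.24, 0.19 and -0.14, with 4 of 8 higher in number 3, against 55.9% of all rows. Inhibitors of cyclin-dependent kinases had a median of 0.04 over 8 genes, with 0 passing and 0 under an unadjusted p of 0.05. The smallest p among them were those of Cdkn2a (-0.38), Cdkn1c (0.17), Cdkn2d (0.33) and Cdkn2b (-0.24).

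Genes linked to quiescence had a median of -0.16 over 10 genes, 3 above 0, with 0 passing by limma and 2 higher and 2 lower under an unadjusted p of 0.05 (20% each, against 4.88% and 4.53% of all rows). Klf2, which keeps T cells resting and in circulation, had a difference of 0.67 and Foxo1, a factor of resting T cells, of 0.37. Btg2, an antiproliferative protein, was at 9.52, 9.4 and 9.18 in PLZF_ON, against 10.11, 9.81 and 9.88 in WT, with a difference of -0.5 (SE 0.16, limma adjusted p = 0.386). Foxp1, another quiescence factor of T cells, had a difference of -0.34. The plot of the lists shows the mitosis genes with the largest medians of the 7 lists in numbers 1 and 2. In number 3 the largest median was that of the inhibitors of cyclin-dependent kinases, 0.34, against 0.13 for the mitosis genes.

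**Figure D4:**
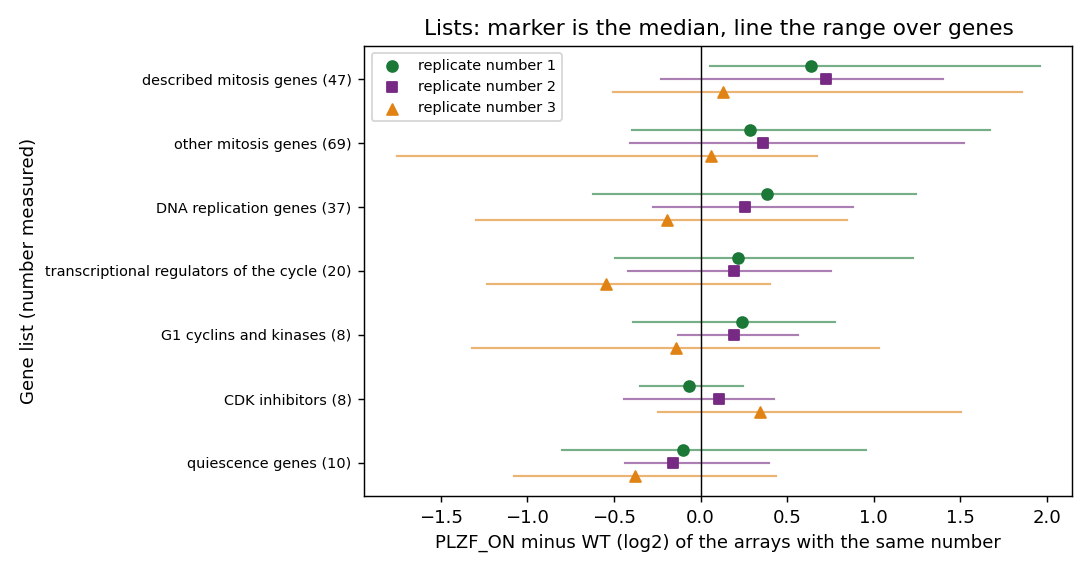
Median (marker) and range over genes (line) of the PLZF_ON minus WT difference on the log2 scale (horizontal axis) for the 47 mitosis genes and 6 other lists of the cell cycle (vertical axis, with the number measured), within replicate number 1 (green circle), 2 (purple square) and 3 (orange triangle). The mitosis genes have medians of 0.64, 0.73 and 0.13 in numbers 1, 2 and 3, and the DNA replication genes of 0.38, 0.26 and -0.2.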

How the data were processed

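The deposited table holds log2 values of 41345 array rows on 6 arrays, made by the authors with RMA, per the submitters' processing notes, from Affymetrix whole-transcript arrays, per the labels' protocols. RMA corrects background, brings arrays to a common distribution and summarises probes per row, which compresses changes of dim genes. The deposited values of PLZF_ON replicate 3 still had a narrower distribution than those of the other arrays. RMA's version and the array annotation's build are not stated in the labels. No further normalization was applied. The platform annotation gave exactly 1 symbol for 23521 rows (22180 genes), which were tested, several for 1814, left out, and none for 16010. The symbols of all 47 measured members matched the NCBI gene table by Entrez number. For a gene with several rows the brightest one, by its mean over 6 arrays, was taken.

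The test was limma 3.58.1 in R 4.3.3 (lmFit, then eBayes with no variance trend; two-sided) with genotype as the one term and Benjamini-Hochberg adjustment over all tested rows at 0.05, over the 4 arrays of replicates 1 and 2 and over all 6. Differences are PLZF_ON minus WT with limma's moderated standard errors. Same-numbered arrays were also compared without a test. The number of arrays limits the precision. Scripts were tested on simulated data. The alternatives tried were a block for the replicate number, omission of each array, only the brighter rows, eBayes with a trend, a repeated quantile step, centring on medians, every deposited row, averaging the rows of a gene, and array weights. Members and lists were chosen with earlier results of these data known, so the cell cycle difference is no independent support. Values on every array are given for the members of each role group with the highest mean and the smallest p, and for the 3 highest and 3 lowest differences. Up to 4 genes with the smallest p were named per other list. Other members and genes, such as Foxm1, Mybl2 and the marker genes, were named after their values were seen, and the background limit was also set then. Marker sums add linear values. Promoters are from RefSeq (GRCm38.p6). Figures were drawn with matplotlib 3.10.9.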

Additional observations from a re-analysis of the deposited data

How the results depend on the processing

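No member passed a limma adjusted p of 0.05 over 4 or 6 arrays under any alternative except the replicate block over 4 arrays, and the median difference kept its sign in all of them. The replicate number as a block gave 2 members passing an adjusted p of 0.05 over 4 arrays, Kif11 (1.44, limma adjusted p = 0.0437) and Ttk (1.35, limma adjusted p = 0.0357), against 0.276% of all rows. With the block 37 had an unadjusted p under 0.05, against 5.58% of all rows, and over 6 arrays 0 passed (0.0298%) and 28 had an unadjusted p under 0.05 (3.1%). In the list of other mitosis genes the block over 4 arrays gave 1 gene passing, Ska3 (1.47, limma adjusted p = 0.0312), and 30 in place of 5 higher under an unadjusted p of 0.05. Among the members and the 6 lists it changed no other adjusted call. The numbers were not shown to pair the arrays. Deviations from the group means correlated at 0.09, 0.25 and 0.24 for numbers 1 to 3, but PLZF_ON replicate 1 correlated better with WT replicate 2 (0.12). The remaining pairs of unlike numbers correlated at -0.24 to -0.03. Over 4 arrays the gap between replicates 1 and 2 correlated at 0.13 between the genotypes. With all deposited rows 4 members had an unadjusted p under 0.05 over 4 arrays, against 3.41% of all rows, and with array weights 18 did over 6, against 5.17%. Leaving out each array gave medians of 0.21 to 1.14 over 4 arrays and 0.17 to 0.87 over 6, with 2 to 32 and 1 to 20 members under an unadjusted p of 0.05, 32 to 47 and 35 to 47 members above 0, and 0 passing. The sign turned for some members, and leaving out an array also leaves the replicate numbers uneven between the genotypes. Leaving out each array over 4 arrays gave -0.58 to 0.81 for Birc5, -0.14 to 0.18 for Cenpa, -0.026 to 0.6 for Dlgap5, -0.12 to 0.69 for Incenp, -0.011 to 1.59 for Mki67 and -0.38 to 0.57 for Nek2. Over 6 arrays it gave -0.61 to 0.44 for Birc5, -0.25 to 0.28 for Incenp, -0.036 to 0.63 for Ccnb2, -0.014 to 1.02 for Tpx2 and -0.24 to 0.013 for Cenpa. Cenpa was also at 0.0017 over 6 arrays with quantile normalization, and Birc5 at 0.26 with array weights. The cause was not tested. With median centring and with quantile normalization again, the within-number medians were 0.65 and 0.62 in number 1, 0.74 and 0.71 in number 2, and 0.04 and 0.21 in number 3. Dim rows and the few arrays limit what these data can show.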
